A study of Mus musculus with 5 samples.

Results

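The 5 genes of elastic fibres and their surroundings, Fbln2, Fbln5, Fbn2, Emilin1 and Ltbp3, were followed in mouse fibroblasts that overexpress the receptor tyrosine kinase ERBB2, relative to their parent line. They were measured by 6 probes of the 20205 on the arrays (5 genes of the 9669 with a probe of their own). The genes were chosen by their ratio between the cell lines in these same data, together with their known role, so those ratios are given as a description with no test. Genes were taken where the platform annotation gave a probe exactly 1 gene symbol.

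The Erbb2-transfected cells are NIH3T3 cells that constitutively carry human HER-2/NEU (ERBB2) behind a cytomegalovirus promoter, and the parental, un-transfected NIH3T3 cells are an immortalised line of mouse fibroblasts. Both were kept in the same serum-supplemented medium. The labels do not say whether the transfected line is 1 clone, and they name no line with an empty vector. Total RNA of both lines was hybridised together to each of 5 arrays, 3 from preparation A (A1, A2 and A3) and 2 from preparation B (B1 and B2). Erbb2-transfected cDNA carried Cy5 on A3 and B2, and Cy3 on A1, A2 and B1. Each value is the log2 of Erbb2-transfected divided by NIH3T3 signal, so a value below 0 means less RNA in the Erbb2-transfected cells. The direction is likely rather than settled, because it rests on reading the deposited values as Cy5 over Cy3. Whether A and B came from cells grown apart is not stated, so differences among the arrays may be technical. The p-values hold for these samples only. Those of the cell line test draw on the variance of all tested genes and probes, with 10.2 prior degrees of freedom. They do not measure the spread of any gene alone. The arrays held values for 5368 (A1) to 17463 (B1) probes, and the number of arrays limits the precision. A ratio from whole cultures cannot tell fewer expressing cells from less RNA per cell.

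Elastic fibres consist of a core of crosslinked elastin on a scaffold of microfibrils, whose main building blocks are the fibrillins. Fibulins are secreted glycoproteins with rows of calcium-binding EGF-like modules that link elastin, microfibrils, basement membranes and cell-surface integrins. Fibulin-5 (Fbln5) brings tropoelastin and lysyl oxidase-like enzymes together and carries an RGD motif for integrins. Fibulin-2 (Fbln2) sits in basement membranes and on microfibrils. Fibrillin-2 (Fbn2) is the fibrillin most linked to developing tissue. Emilin-1 (Emilin1) lies between elastin and microfibrils and limits the processing of pro-TGF-beta. Latent TGF-beta binding protein 3 (Ltbp3) holds TGF-beta in an inactive complex in the matrix. Fibroblasts are a known source of these proteins.

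The lowest ratio of the group was that of Fbln5 (Entrez 23876, probe 2556), a gene on the minus strand at chr12:101746565-101819119 of GRCm38.p6. Its log2 ratio was -3.42 on A2, -3.75 on A3, -3.47 on B1 and -4.71 on B2, with no value on A1. Every array with a value lay far below 0, and B2 lay lowest. Averaged over preparations, the ratio was -3.84 ± 0.35 (SD of preparations A and B, n = 2), a 14.3-fold lower level. Single arrays ranged from 3.83% to 9.34% of the NIH3T3 level. Of the 3134 tested genes, 5 had a lower ratio.

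Fbln2 (Entrez 14115, probe 1670), on the plus strand at chr6:91212460-91272540, came next. Its log2 ratio was -3.05 on A2 and -2.68 on A3, against -3.70 on B1 and -3.36 on B2, again with no value on A1. Both arrays of preparation A lay above both arrays of preparation B, but the difference between preparations did not pass (adjusted p = 0.846 by limma). All 4 lay far below 0. The mean was -3.20 ± 0.47 (SD, n = 2), or 10.9% of the NIH3T3 level, with single arrays between 7.69% and 15.6%. Of the tested genes, 7 had a lower ratio, Fbln5 among them. The ranges of Fbln5 and Fbln2 over arrays overlapped, and on B1 Fbln2 was the lower of the pair.

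The promoters of these genes are shown because the fibulins lay together far below 0, while Ltbp3, the third gene with values in both dye orientations of both preparations, was only mildly lower. The sequences are from RefSeq (GRCm38.p6) and cover 250 bases before to 50 after a transcription start of that table, 5′ to 3′ on the gene's strand. That start is the outer end of the annotated gene for Ltbp3 and for the Fbln5 window shown, but lies 304 bases inside the annotated gene for Fbln2 and 399 bases inside it for Emilin1. Capitals mark GGGCGG or its reverse complement (the GC box, known to bind Sp1) and TGANTCA on either strand (the AP-1 type motif).
Fbln5, chr12:101819070-101819369, minus strand: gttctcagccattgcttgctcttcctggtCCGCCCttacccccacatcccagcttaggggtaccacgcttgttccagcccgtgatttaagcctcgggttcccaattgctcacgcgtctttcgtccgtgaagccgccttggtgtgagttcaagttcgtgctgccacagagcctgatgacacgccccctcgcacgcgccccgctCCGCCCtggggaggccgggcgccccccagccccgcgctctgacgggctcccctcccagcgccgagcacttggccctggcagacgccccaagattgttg
Fbln2, chr6:91212514-91212813, plus strand: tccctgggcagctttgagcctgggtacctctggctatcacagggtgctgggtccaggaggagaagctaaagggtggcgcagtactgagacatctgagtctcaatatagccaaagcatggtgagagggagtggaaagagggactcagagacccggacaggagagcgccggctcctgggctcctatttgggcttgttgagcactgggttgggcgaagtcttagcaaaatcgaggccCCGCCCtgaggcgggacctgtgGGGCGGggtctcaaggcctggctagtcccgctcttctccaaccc
Ltbp3, chr19:5740650-5740949, plus strand: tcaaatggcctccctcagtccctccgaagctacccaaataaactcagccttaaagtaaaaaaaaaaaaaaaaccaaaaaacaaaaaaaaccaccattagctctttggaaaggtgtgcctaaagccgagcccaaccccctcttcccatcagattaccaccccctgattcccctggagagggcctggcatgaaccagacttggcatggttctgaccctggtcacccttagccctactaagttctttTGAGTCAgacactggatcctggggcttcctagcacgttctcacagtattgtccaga

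GGGCGG was found 2 times in each of the fibulin promoters shown and 0 times in those of Ltbp3 and Emilin1, while 35.7% of all 32851 RefSeq promoters of this length hold it. TGANTCA was found once in these windows, in Ltbp3, where the match begins 6 bases before that start, against 7.81% of all promoters. TATAAA occurred in none of them, against 13.6% of all promoters. CAGAC, the half-site known for SMAD proteins, occurs in 49.6% of all promoters and was found 1 time in the Fbln5 window shown, 0 times in Fbln2, 2 times in Ltbp3 and 2 times in Emilin1. CANNTG, the E-box, occurs in 72.3% of all promoters, and was found 2 times in the Fbln5 window shown and 1 time each in Fbln2, Ltbp3 and Emilin1. CAGAC and TGANTCA overlap by 2 bases in Ltbp3. The window of a second Fbln5 start, 635 bases inside the gene (chr12:101818435-101818734), held CAGAC 2 times and none of the other 4 motifs. GC content was 65.7% in the Fbln5 window shown, 60.3% in Fbln2, 48.0% in Ltbp3 and 61.7% in Emilin1, against a median of 52.7% over all promoters. These matches describe the sequences and were not tied to the ratios. 4 of the 5 genes had an entry in the promoter table.

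**Figure D1:**
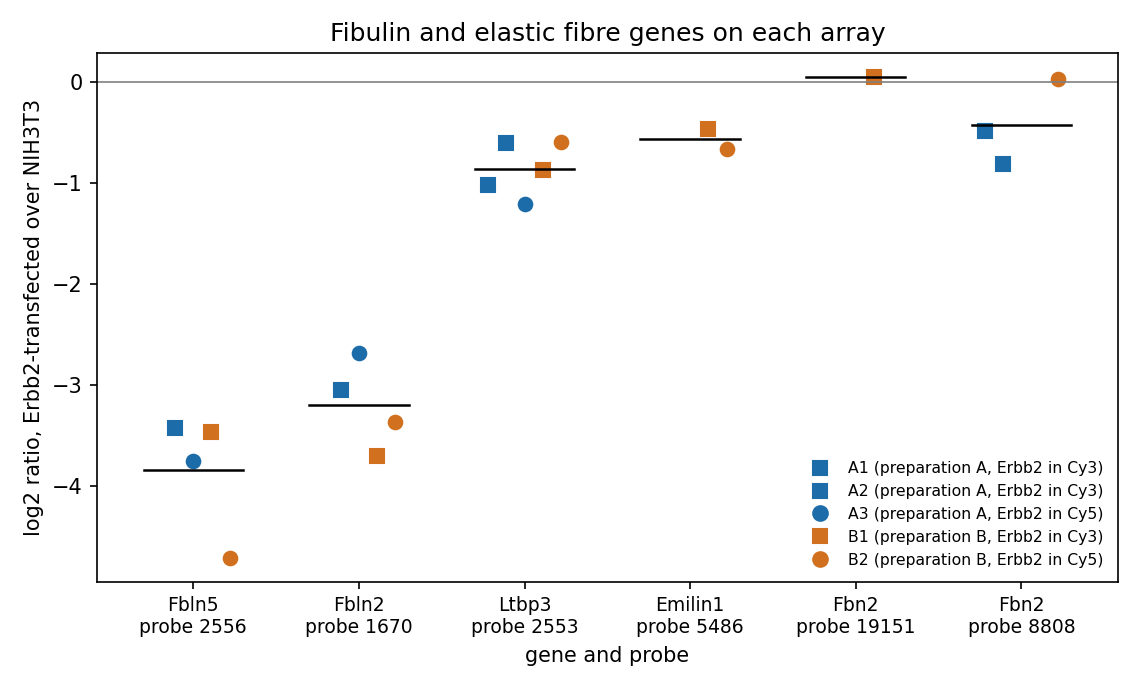
Log2 ratio of Erbb2-transfected over NIH3T3 cells (vertical axis) for each probe of the 5 genes (horizontal axis). Each point is 1 array, in the order A1, A2, A3, B1, B2 from left to right within a probe, blue for preparation A and orange for preparation B, circles for Erbb2-transfected cDNA in Cy5 and squares for Cy3, and the bar is the mean of the arrays. Fbln5 and Fbln2 lie between -4.71 and -2.68, apart from Ltbp3, Emilin1 and Fbn2, which lie between -1.20 and 0.05.

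Ltbp3 (Entrez 16998, probe 2553), on the plus strand at chr19:5740900-5758536, was the single gene of the 5 with a value on all arrays. Its log2 ratio was -1.02 on A1, -0.60 on A2 and -1.20 on A3, against -0.87 on B1 and -0.59 on B2. All 5 values lay below 0, and the preparations overlapped. The mean was -0.87 ± 0.20 (SD, n = 2), a 1.83-fold lower level or 54.8% of that in NIH3T3 cells. Of the tested genes, 148 had a lower ratio. The values of Ltbp3 did not overlap with those of either fibulin.

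Emilin1 (Entrez 100952, probe 5486), at chr5:30913387-30921279 on the plus strand, had values in preparation B alone. They were -0.47 on B1 and -0.66 on B2, which is 72.4% and 63.4% of the NIH3T3 level. Both dye orientations of preparation B were thus below 0, and preparation A gave no value. Both values equalled, after removal of the array's constant, ratios of whole numbers up to 300 within 6e-07, which was true of 2 of the 19 values of the 5 genes. On B1 and B2 as a whole, 19.1% and 49.6% of values did so. For the fibulins, Ltbp3 and Fbn2 no value did.

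Fbn2 (Entrez 14119), on chromosome 18, had 2 probes. Probe 8808 had log2 ratios of -0.48 on A1, -0.81 on A2 and 0.03 on B2, and probe 19151 had 0.05 on B1 alone. Preparation A lay below 0 and preparation B at about 0, and no probe was measured in both dye orientations of a preparation. The mean of preparations was -0.30 ± 0.48 (SD, n = 2), a spread larger than the mean itself. In order of their means, the 5 genes ran Fbln5, Fbln2, Ltbp3, Emilin1 and Fbn2, and the array ranges of Fbln5 and Fbln2, of Ltbp3 and Emilin1, of Ltbp3 and Fbn2, and of Emilin1 and Fbn2 overlapped.

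**Figure D2:**
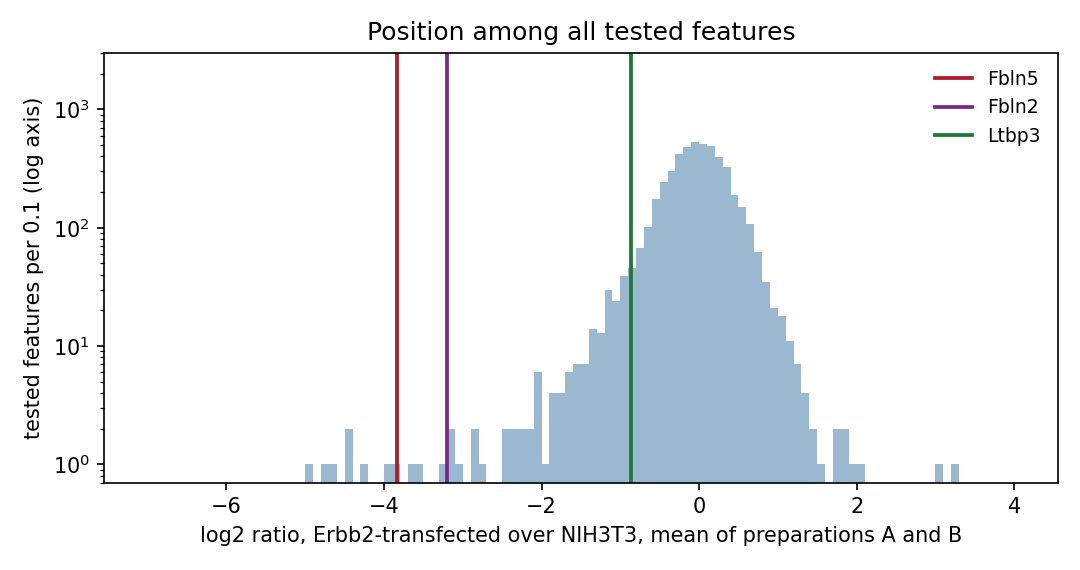
Number of tested features (vertical axis, logarithmic) by log2 ratio of Erbb2-transfected over NIH3T3 cells, as the mean of preparations A and B, in steps of 0.1. Vertical lines mark Fbln5 (-3.84), Fbln2 (-3.20) and Ltbp3 (-0.87), which lie in the lower tail, the fibulins among its last few features.

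The whole distribution was narrow, with a median of -0.02 and 10% of the 4892 tested features below -0.54. A feature is a gene (its probes averaged) or a probe without a single symbol, and was tested with limma where it had a value in both dye orientations of both preparations. At an adjusted p under 0.05, 222 of them (4.54%) were lower and 110 (2.25%) higher in Erbb2-transfected cells. Fbln2, Fbln5 and Ltbp3 entered this fit and are given here without its p-values, since this contrast chose them. Emilin1 had no value in preparation A and Fbn2 lacked a dye orientation there, so both were outside the fit. Below 0 on every array with a value were 13.4% of the tested features, and all 3 of these genes, a count fixed by their choice, from which nothing is read.

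Dye and preparation were not used to choose the genes, and both could be tested for the 3 genes in the fit. Fbln5 averaged -4.23 with Erbb2-transfected cDNA in Cy5 and -3.44 in Cy3, a dye effect of -0.79 ± 0.43 (SE; adjusted p = 0.456 by limma). Fbln2 averaged -3.02 in Cy5 and -3.37 in Cy3, an effect of 0.35 ± 0.41 in the other direction (SE; adjusted p = 0.753 by limma). For Ltbp3 the means were -0.90 in Cy5 and -0.83 in Cy3, and the fitted effect of -0.11 ± 0.38 (SE) did not pass either (adjusted p = 0.936 by limma). Over all features 29 (0.593%) had a dye effect, against 645 with an unadjusted p under 0.05. None of the 3 genes was among either, the smallest unadjusted p being 0.0869, for Fbln5. Both orientations thus gave ratios far below 0 for both fibulins.

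**Figure D3:**
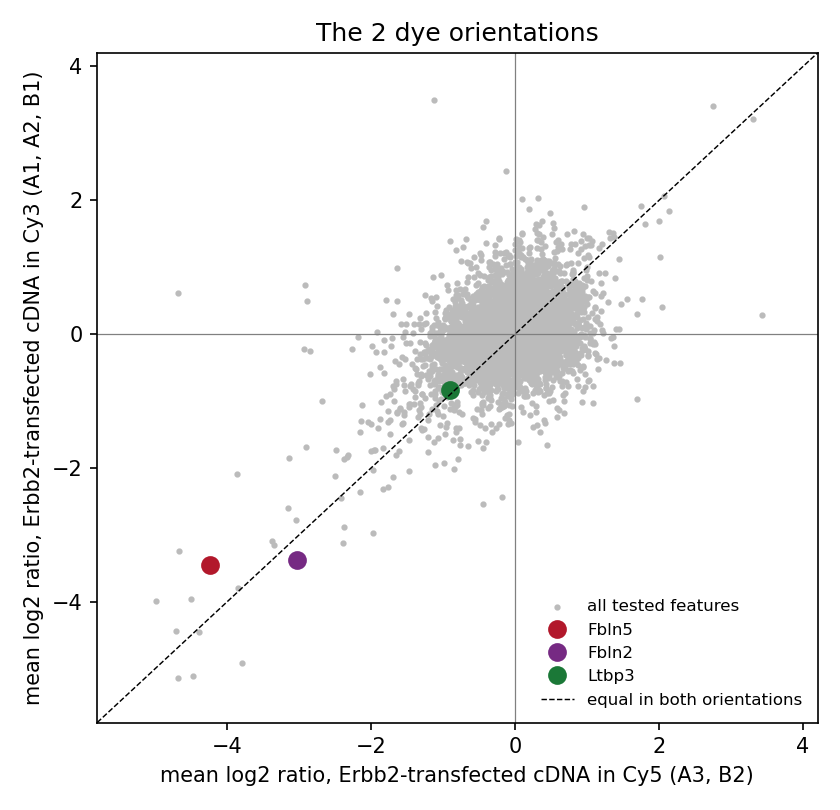
Mean log2 ratio of Erbb2-transfected over NIH3T3 cells on arrays with Erbb2-transfected cDNA in Cy5 (horizontal axis) against arrays with it in Cy3 (vertical axis) for the tested features in grey. The dashed line marks equal ratios in both orientations, and Fbln5 (-4.23, -3.44), Fbln2 (-3.02, -3.37) and Ltbp3 (-0.90, -0.83) lie below 0 on both axes.

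Between preparations, Fbln5 averaged -3.59 in A and -4.09 in B, and Fbln2 averaged -2.87 in A and -3.53 in B. The fitted differences of A minus B were 0.50 ± 0.43 for Fbln5 and 0.67 ± 0.41 for Fbln2 (SE; adjusted p = 0.933 and 0.846 by limma). Ltbp3 averaged -1.01 in A and -0.73 in B, with a fitted difference of -0.23 ± 0.38 (SE; adjusted p = 0.977 by limma). One feature in all (0.0204%) differed between preparations, against 330 with an unadjusted p under 0.05. In simulated data with the same missing values, this test recovered 4.1% of differences of 2 and 63.5% of differences of 4 on the log2 scale. The dye test recovered 4.1% and 62%, so differences of the size seen in the fibulins would mostly have been missed.

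The genes whose ratios lay closest to those of a member were found by the root mean square difference over arrays. For Ltbp3, among 2007 genes with a value on all 5 arrays, they were Tceal9 (0.15), Kank3 (0.19), Sptbn1 (0.21), Mrps23 (0.23) and Eif3h (0.23). For the fibulins the same measure was taken over the 4 arrays on which they had values, among 3107 genes, an extension chosen after the values were seen. Closest to Fbln5 were Col1a2, a chain of type I collagen (0.75), Fn1, fibronectin (0.84), Atoh8 (0.85), Fbln2 (0.89) and Ptgis (1.02). Closest to Fbln2 were Ptgis, the prostacyclin synthase gene (0.73), the chemokine gene Ccl9 (0.80), Fbln5 (0.89), Timp3 (0.94) and Pdia6 (1.25). Each fibulin was among the 5 genes nearest to the other, in a sparse tail where few genes have such ratios. Both were chosen by these same ratios, so nothing is read from their nearness. Ltbp3 stood 3.09 from Fbln5 and 2.44 from Fbln2.

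Of 30 other genes of elastic fibres, microfibrils and their crosslinking, 17 had a value and 5 could be tested. Among these 5, 1 fell, 0 rose and 4 did not pass limma's test, with 1 lower and 1 higher at an unadjusted p under 0.05. Their median was 0.05, against -0.02 for all tested features. The gene that fell was Lox, lysyl oxidase, which crosslinks collagen and elastin. In preparation A its log2 ratio was -5.48 (A1), -5.16 (A2) and -5.92 (A3), and in preparation B it was -4.68 (B1) and -3.01 (B2). The mean was -4.73 ± 1.26 (SD, n = 2; adjusted p = 6.64e-06 by limma). This p draws on the variance of all tested features, with 10.2 prior degrees of freedom, and does not measure the spread of Lox alone. With a robust variance estimate the adjusted p of Lox was 0.000532 by limma. B2 stood nearest to 0 because of its second probe, 18432, at -0.25 there, while probe 1601 ranged from -5.92 to -4.69 over all 5 arrays.

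Of the lysyl oxidase-like genes listed, Loxl1 and Loxl3 had values, and neither passed the test. Loxl3, a lysyl oxidase-like enzyme, lay above 0 on its 4 arrays, at 1.07 on A2 and 0.38 on A3, and 0.73 on B1 and 0.05 on B2 (mean 0.56 ± 0.23, SD, n = 2; adjusted p = 0.143 by limma). Loxl1, the enzyme that fibulin-5 is known to bring to elastin, had -0.23 ± 0.15 (SD, n = 2; adjusted p = 0.547 by limma). Its ratios were -0.88 (A3) and -0.44 (B2) with Erbb2-transfected cDNA in Cy5, against 0.10 to 0.31 in Cy3. Signs of Loxl1 thus followed the dye, although its dye effect did not pass (adjusted p = 0.331 by limma).

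Relatives of the fibulins and of Emilin1 had few values, and their difference from the 5 genes was not tested. Fbln1, the fibulin gene most like Fbln2 in domain order, had 1.10 on A1, -1.67 on A2 and 0.01 on A3, and -0.55 on B1 and 1.02 on B2. These values lay on both sides of 0 within each preparation, and the mean of 0.05 ± 0.27 hides them (SD, n = 2; adjusted p = 0.913 by limma). Fbln7 had a single value of -0.51, on B1. Emilin2, the sister gene of Emilin1, had -0.27 and -0.95 with Erbb2-transfected cDNA in Cy5 (A3 and B2) against 1.15 and 0.82 in Cy3 (A2 and B1). Its sign followed the dye (dye effect -1.60, adjusted p = 0.109 by limma), and its mean of 0.19 ± 0.36 did not pass (SD, n = 2; adjusted p = 0.664 by limma).

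Ltbp2, which binds fibulin-5 and microfibrils but not latent TGF-beta, had -1.21 on A1, -0.85 on A2 and -1.25 on B1. All 3 arrays lay below 0, near the values of Ltbp3, yet all carried the same dye orientation, so a dye effect cannot be told apart from the cell line. Ltbp4 had -0.27 on A1, -0.66 on A2 and 0.14 on B1, on both sides of 0. Mfap5, a microfibril-associated glycoprotein, had -0.45 on A2 and -0.90 on B1, and Adamtsl4 gave -0.54 (A2), 0.22 (B1) and -0.04 (B2). Over the 12 genes of this list with 2 or more arrays, 5 were below 0 on each of them, 2 above 0 and 5 had both signs. No matching share was taken over all features with 2 or more arrays, and some of these genes had only 2 values. Nothing is read from these counts. The elastin gene Eln had a probe but no value on any array.

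**Figure D4:**
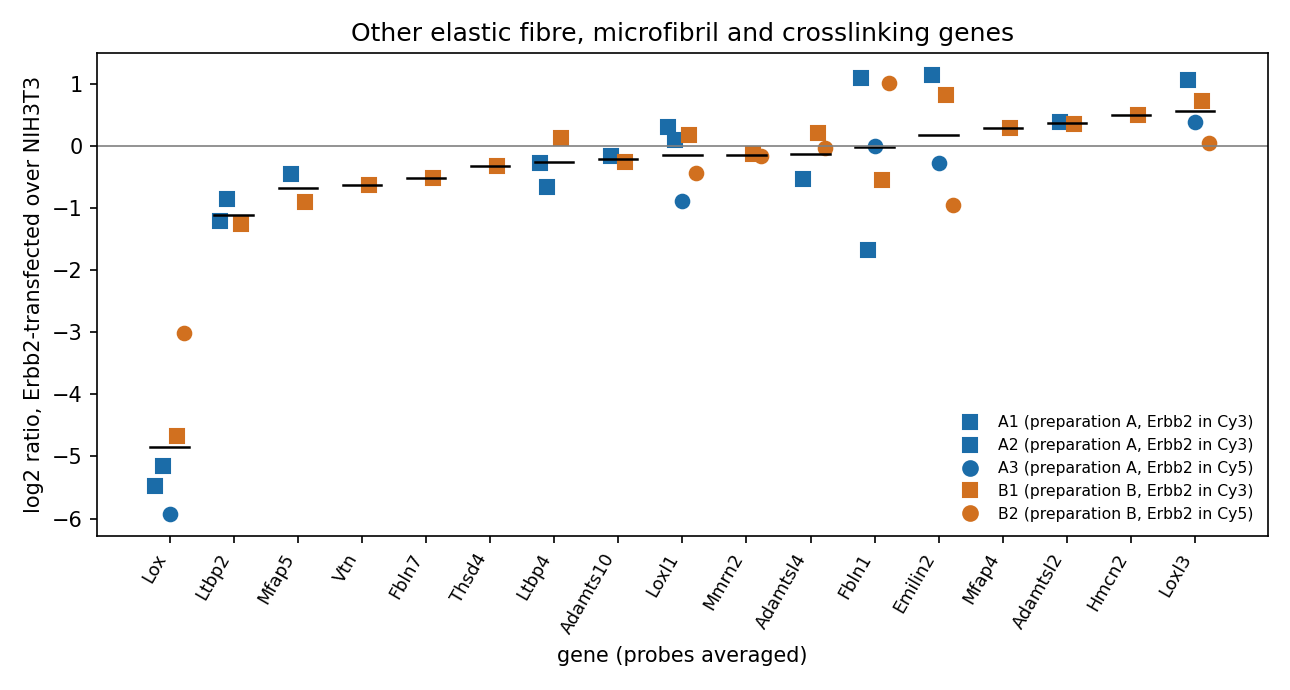
Log2 ratio of Erbb2-transfected over NIH3T3 cells (vertical axis) for the 17 other elastic fibre, microfibril and crosslinking genes with a value (horizontal axis, in order of their mean). Points are arrays, blue for preparation A and orange for preparation B, circles for Erbb2-transfected cDNA in Cy5 and squares for Cy3, and bars are means over arrays. Lox stands apart between -5.92 and -3.01, Ltbp2 lies between -1.25 and -0.85, and most others lie on both sides of 0 or rest on few arrays.

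Proteins that fibulins bind were taken as a second list, of which 7 of 26 genes could be tested. Of these, 2 fell, 0 rose and 5 did not pass, with 2 lower and 0 higher at an unadjusted p under 0.05 (limma), and the median was -0.39. Fibronectin (Fn1), a ligand of fibulins in the matrix, had a log2 ratio of -4.61 (A1), -4.01 (A2) and -4.72 (A3), with -4.70 on B1 and on B2, and a mean of -4.61 ± 0.13 (SD, n = 2; adjusted p = 3.76e-07 by limma). Itgb5, the integrin chain that pairs with alpha-v in a receptor for fibulin-5, ran -1.06 (A2), -1.55 (A3), -1.04 (B1) and -2.69 (B2) (mean -1.59 ± 0.39, SD, n = 2; adjusted p = 0.00146 by limma). All of its arrays were below 0, with B2 lowest, as for Fbln5. Itgb1, a chain of other fibulin-binding integrins, was below 0 on all 5 arrays but close to it, at -0.40 ± 0.01 (SD, n = 2; adjusted p = 0.276 by limma). Aggrecan (Acan), a proteoglycan that fibulins bind, ran -0.98 (A2), -1.35 (B1) and -1.12 (B2) and was outside the test. The basement membrane collagens Col4a1 and Col4a2 had -0.38 and -0.39 and did not pass.

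Ltbp3, Emilin1 and the fibrillins act on TGF-beta, and of 38 genes of that pathway 10 were tested. Of these, 2 fell, 0 rose and 8 did not pass, with 2 lower and 1 higher at an unadjusted p under 0.05 (limma), and the median was 0.01. With each probe tested as its own feature, 2 of 9 fell and 1 rose. Tgfbr2, the receptor chain that binds the ligand, ran -0.31 (A2), -1.04 (A3), -1.09 (B1) and -2.25 (B2), with a mean of -1.17 ± 0.70 (SD, n = 2; adjusted p = 0.0185 by limma). It no longer passed without array A3, without B2, after scaling arrays to equal spread or after quantile normalization. Id3, a gene known to respond to BMP signals, had -1.01 ± 0.31 (SD, n = 2; adjusted p = 0.0166 by limma), was below 0 on all 5 arrays, and did not pass without B1. Neither passed when features with any value in both preparations were tested. Furin, a protease that cleaves pro-TGF-beta, had 0.55 ± 0.56 (SD, n = 2; adjusted p = 0.196 by limma), from -0.46 on B2 to 1.55 on A2. Tgfb2, a ligand, had -0.24 ± 0.01 (SD, n = 2; adjusted p = 0.535 by limma), and Smad5 was above 0 on all 5 arrays at 0.23 ± 0.07 without passing. Outside the test, Smad1 had -0.25 and -0.09 in preparation A and -0.56 and -0.95 in preparation B, all below 0. Smad3 and Nrros lay on both sides of 0, with array means of 0.19 and -0.08. Pmepa1, a feedback gene of the pathway, had 2.27 on A3 and 0.16 and 0.51 on B1 and B2. The lowest array mean of this list was that of Ccn2, with values of -4.43 on B1 and -5.97 on B2. The highest was that of Tgfbi, with a single value of 1.46, on B1.

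Enzymes that degrade elastin or fibulins, and their inhibitors, gave 3 falls, 0 rises and 5 genes that did not pass among 8 tested, with a median of -0.54 and 5 lower and 0 higher at an unadjusted p under 0.05 (limma). Timp3, an inhibitor bound to the matrix, had -4.06, -3.20 and -3.47 in preparation A, and -2.01 and -3.26 in preparation B (mean -3.09 ± 0.65, SD, n = 2; adjusted p = 1.84e-05 by limma). Mmp2, a gelatinase that also cleaves elastin, had -1.02 ± 0.16 and was not called without A3, without B2 or after scaling (SD, n = 2; adjusted p = 0.0129 by limma). Adamts1, a protease of matrix proteoglycans, had -0.96 ± 0.28 and was not called without A3, without B1, after scaling or after quantile normalization (SD, n = 2; adjusted p = 0.0198 by limma). Timp1 and Timp2, other inhibitors, lay on opposite sides of 0, at -0.54 and 0.34, and neither passed. With features of any value in both preparations tested, neither Mmp2 nor Adamts1 was called. The shares of lower calls in the 4 lists can be read against 4.54% of all tested features, although the lists are small and were drawn up with earlier results of these data known. That share is for calls at an adjusted p under 0.05. The counts of the 4 lists at an unadjusted p under 0.05 have no matching share over all features, and nothing is read from them.

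Of 13 fibroblast markers, 10 had a value. A ratio gives no level, and the rule for empty values is not stated, so a value does not show that a marker was expressed. Among 6 tested, 2 fell and 4 did not pass (limma), beside 4.54% lower calls over all features. At an unadjusted p under 0.05, 3 were lower and 1 higher (limma), with no matching share over all features. Those that fell were the type I collagen genes Col1a1 (-4.93) and Col1a2 (-3.97), and those that did not pass had mean log2 ratios of -0.60 for Fap, -0.01 for S100a4, 0.47 for Vim and 0.51 for Col3a1. Over the 10 markers with 2 or more arrays, 4 were below 0 on each array (Col1a1, Col1a2, Fap and Dcn), 1 was above 0 (Vim) and 5 had both signs. These sign counts have no matching share over all features, and nothing is read from them. Of 28 markers of smooth muscle, epithelium, endothelium and macrophages, 16 had a value, with array means between -0.72 and 0.29. Among the 3 tested, 0 were called by limma and 0 had an unadjusted p under 0.05. The part of these markers in the ratios of the fibulins was not tested.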

How the data were processed

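RNA of both cell lines was measured on 5 two-colour arrays. Per the labels, slides were scanned with a GenePix 4000A and read with GenePix Pro 3.0, background was subtracted from mean intensities, and ratios were scaled to a median of 1. The authors deposited 1 value per probe and array; neither the numerator dye nor the rule for empty values is stated. Their deposited unit was taken as log2, since 19.1% to 57.8% of values gave ratios of integers up to 300 once a constant per array was removed, against 1.34% to 1.77% after shifting the constant and 2.27% to 2.76% for natural logarithms. Arrays of opposite orientation correlated negatively as deposited (r across probes -0.54 to -0.17) and arrays of 1 orientation positively (0.45 to 0.52), so the sign of arrays with Erbb2-transfected cDNA in Cy3 was changed.

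Probes of 1 symbol were averaged to a gene. Each preparation's mean gives its 2 dye orientations equal weight. limma 3.58.1 (lmFit, eBayes; R 4.3.3) tested whether the mean of both preparations differs from 0, with 10.2 prior degrees of freedom and Benjamini-Hochberg adjustment over 4892 features at 0.05. Dye and preparation effects came from 1 limma fit to the 5 arrays. In 20 simulated draws of 4892 features with 200 changed, the cell line test recovered 8.8%, 84.7% and 99.2% of changes of 1, 2 and 4 (log2), with 2.49% false calls. Noise in these draws was independent between arrays, with no dye effect and no error shared within a preparation. The shares recovered and the 2.49% therefore need not hold for the real arrays. The genes, lists and tests were chosen with earlier results of these data known. The rule for named list genes took up to 6 called per list and up to 4 with the smallest p that did not pass. It also took up to 4 untested genes with values on the most arrays. The nearest genes are the 5 with the smallest root mean square difference. Fbln7, Eln, Ccn2, Tgfbi and the fibroblast markers were added after their values were seen. Alternatives changed the unit of replication, dye balance, centring, scaling, probes, missing and extreme values, variance, threshold and arrays. Figures were drawn with matplotlib 3.10.9.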

Additional observations from a re-analysis of the deposited data

Results flagged for a closer look

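Fbn2 had a mean of -0.64 in preparation A (A1 and A2) against 0.039 in preparation B (B1 and B2), so every array of one preparation lay on the other side of 0 from the other preparation. The difference was not tested, B1 was read by another probe than the rest, and preparation A had values in 1 dye orientation alone. Mmp9, a gelatinase that cleaves elastin, likewise had -0.52 in preparation A against 0.18 in preparation B, also untested. In preparation A it too had values on A1 and A2 alone, which share 1 dye orientation. For Fn1, the value of -4.01 on A2 stood apart from the other 4 arrays. Fn1 was 1 of 32 genes examined for a single array apart, where chance marks about 1 in 20. That value averages probes that differed. Probe 1794 was nearest 0 on A2, at -3.60, while probe 3994 had -4.42 on A2 and was nearest 0 on A1, at -4.14.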

How the results depend on the processing

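The ratios of the 5 genes moved by less than the SD between arrays under every alternative that gave them a value, apart from the reading of the dyes. With Cy3 over Cy5 every sign turns, to 3.20 for Fbln2, 3.84 for Fbln5, 0.30 for Fbn2, 0.56 for Emilin1 and 0.87 for Ltbp3. With each array left out in turn, Fbln5 ranged from -4.15 to -3.53, Fbln2 from -3.29 to -3.11, Ltbp3 from -0.94 to -0.77, Emilin1 from -0.66 to -0.47 and Fbn2 from -0.38 to -0.22. The number of changed features was 332 as reported, 509 with preparation as a random block on 5 arrays, 124 after scaling to equal spread, 193 after quantile normalization, 544 with each probe as its own feature, 149 over the 11817 features with any value in both preparations and 120 at an adjusted p under 0.01; it ranged from 198 (without B2) to 498 when 1 array was left out. Without A3 it was 219 and without B1 211. Among the other elastic fibre genes 1 gene was called in every setting run. The 2 called binding partners of fibulins became 4 of 11 probes with each probe as its own feature, and 1 over features with a value on all 5 arrays, with a range of 1 to 3 over arrays left out. The 2 called TGF-beta genes became 1 after scaling, quantile normalization or restriction to features with all 5 arrays, and 0 over features with any value in both preparations or at an adjusted p under 0.01, with a range of 1 to 2. With each probe as its own feature 3 of 9 were called, 2 lower and 1 higher. The 3 called elastases and inhibitors became 1 after scaling, over features with any value in both preparations and at an adjusted p under 0.01, with a range of 1 to 3. Dye effects numbered 29 as reported, 4 over features with all 5 arrays and 19 by probe. They ranged from 1 (without A3) to 256 (without A1) with arrays left out, with 56 without A2 and 2 without B1 or B2. Preparation differences ranged from 1 to 25, with 25 both without A1 and without A2. With the repetition number as a replicate block in place of the dye term, 1 of 2872 features differed; the numbers mark repeats within a preparation, and deviations of same-numbered arrays had r of 0.03 and -0.37, so they do not pair the arrays. Unless a setting changed the features or arrays, the cause of these changes was not tested. Few arrays and unknown spot intensities limit all of these values.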
